A study of Mus musculus with 10 samples.

Results

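The genes examined here were 36 members of the hypoxia response, 10 regulators of hypoxia-inducible factor (HIF) and 26 of its targets that do not belong to glycolysis, out of 39017 genes in the count table. They were taken by their gene symbol, and all 36 were present. Expression was measured by RNA sequencing in 10 mouse lung tumors, 5 from KP mice and 5 from KPG1 mice. All animals were C57BL/6 males in which an adenovirus delivered Cre into the trachea under the SPC promoter (Ad5SPC-Cre), so that tumors start from cells that make surfactant protein C. KPG1 mice carried 2 floxed copies of Slc2a1, which encodes the glucose transporter Glut1. The KP controls shared every other engineered allele and the same virus, and their labels give a heterozygous floxed Slc2a1 allele in the genotype field while the growth protocol lists none. All tumors were taken at 18 weeks and 6 days after initiation, macrodissected and dissociated, and polyA RNA came from the cells left after magnetic removal of CD45-positive immune cells. The comparison asks which genes differ in tumors in which Glut1 was targeted. The labels do not say whether each tumor came from a different animal, so the p-values measure the spread between these tumors.

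Cells sense oxygen through HIF, a pair of proteins made of an oxygen-labile α subunit and a stable β subunit. In the presence of oxygen, prolyl hydroxylases of the Egln family mark the α subunit, the VHL protein binds it and it is degraded. When oxygen falls the α subunit accumulates, joins the β subunit and binds a short DNA element in front of genes for glucose uptake, blood vessel growth, mitochondrial turnover, pH control and collagen processing. Glut1 is itself a classical HIF target, and solid tumors commonly hold poorly oxygenated regions.

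Depth was 32427029 to 49534284 counts per library in KP and 35057912 to 46367400 in KPG1. Levels are given as CPM, the counts of a gene relative to the scaled total of its library, which compare libraries for 1 gene, and as TPM, which also divide by gene length and compare genes. Epcam, an epithelial marker, was at 334 to 627 CPM in KP and 381 to 504 CPM in KPG1. The epithelial keratin genes did not overlap between groups, Krt8 at 1107 to 1495 CPM in KP and 775 to 957 CPM in KPG1, and Krt18 at 1515 to 2339 CPM and 815 to 1076 CPM. Sftpc, the surfactant gene of alveolar type 2 cells, was at 5370 to 19893 CPM in KP and 17478 to 40180 CPM in KPG1. Ptprc, the gene of CD45, was at 5.21 to 9.98 CPM in KP and 5.42 to 10.97 CPM in KPG1. Of 12 leukocyte genes tested 8 had a lower fitted value in KPG1. Of these 3, S100a8, S100a9 and Itgam, had an unadjusted p under 0.05 and no overlap between groups. Their log2 fold changes were -1.84, -1.98 and -1.04. Over all genes 47.3% had a lower fitted value, 6.31% were lower at that p and 1.76% were lower without overlap. The leukocyte sum was 77.02 to 138 CPM in KP and 74.3 to 403 CPM in KPG1. It was 403 CPM in KPG1 2 and 315 CPM in KPG1 4, and 74.3 to 93.9 CPM in the other KPG1 tumors. Lyz1, the most abundant gene of that list, was at 16.1 ± 6.95 CPM in KP and 137 ± 162 CPM in KPG1 (SD, n = 5). The part of these marker differences in the members' values was not tested. Slc2a1 stood at 71.7 to 127 CPM in KP and at 40.8 to 66.8 CPM in KPG1, with no overlap. Its log2 fold change was -1.01 (SE 0.20, limma adjusted p 0.0675, exact permutation p 0.00794, the smallest that rearranging 5 against 5 tumors allows). Transcripts were still counted in every KPG1 library. In such mixed samples, fewer cells of a type and less RNA per cell cannot be told apart.

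None of the members passed an adjusted p of 0.05 in limma, where 0.111% of the 16216 genes tested passed as lower in KPG1 and 0.0617% as higher. Of the 36 members 35 were tested, and Epo was too low. At an unadjusted p under 0.05 there were 4 members, Bhlhe40, Ndrg1, Adm and Hif3a, all lower in KPG1, and 0 higher, against 6.31% of all genes lower and 5.26% higher. The median fitted values of the regulators and of the targets lay on different sides of 0, while each set had members on both sides. Of the 10 regulators 8 had a higher fitted value in KPG1 and 2 a lower one, where 47.3% of all genes had a lower one. The median log2 fold change of the regulators was 0.15. Of the 25 targets tested 21 had a lower one (84.0%, against 47.3% of all genes) and the median was -0.22, while the median over all genes was 0.02. Bhlhe40 and Ndrg1 were the members whose groups did not overlap, both lower in KPG1, a pattern found in 1.76% of all genes in that direction and 1.05% in the other. The difference between the regulators and the targets was not tested, since genes are not replicates. A fit that also held the sample number put the median of the regulators at -0.019. Sample numbers ran from 1 to 10 in KPG1 and from 6 to 16 in KP. That term and the group therefore cannot be fully told apart. The median of the targets was -0.067 with a weight for each library and -0.13 without KP 4 or without KP 5.

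**Figure D1:**
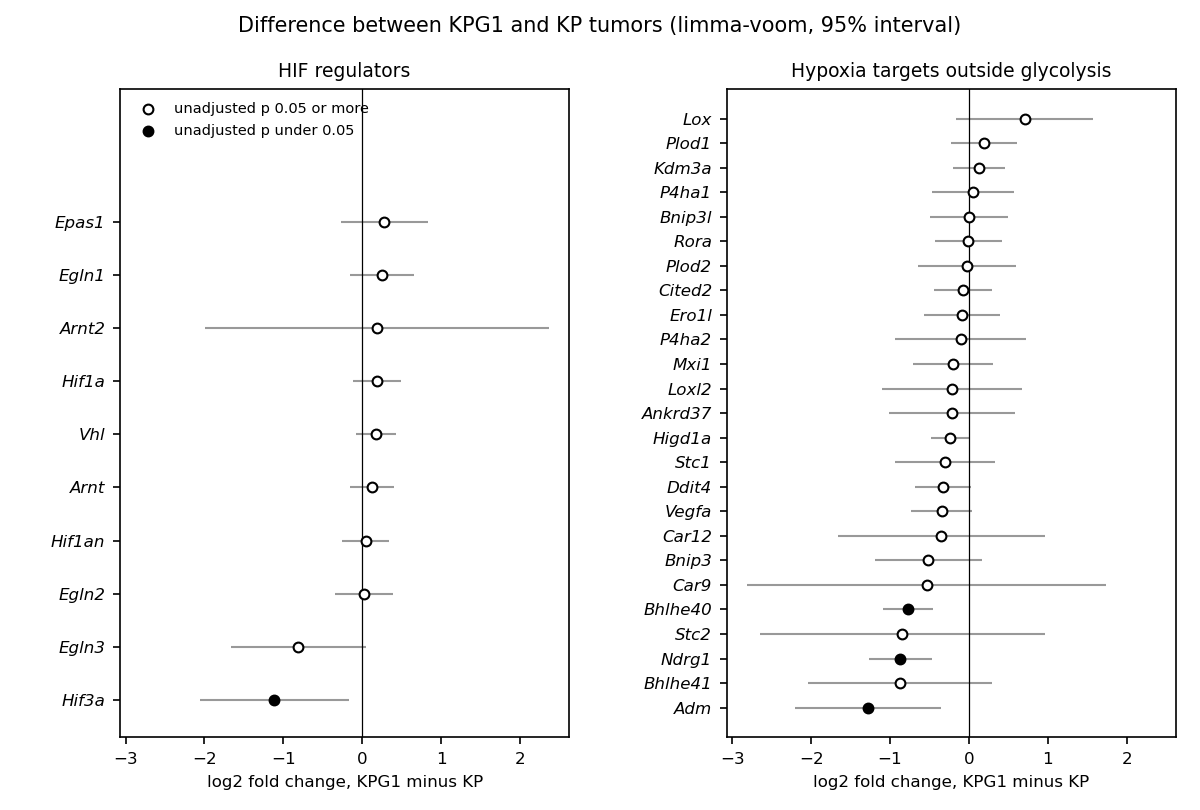
Log2 fold change of KPG1 over KP for the 10 regulators (left) and the 25 targets tested (right), from the limma-voom fit over all genes. Points are estimates, lines are 95% intervals over 5 tumors per group, and filled points mark an unadjusted p under 0.05. The intervals of Bhlhe40, Ndrg1, Adm and Hif3a lie below 0, and those of Car9, Stc2, Car12 and Arnt2 are the widest.

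Among the α subunits, Hif1a, which is stabilised in most cell types, was at 207 to 312 CPM in KP and 238 to 310 CPM in KPG1 (chromosome 12, 73901375 to 73947530, plus strand, mm10). Its log2 fold change was 0.18, with a 95% interval of -0.12 to 0.49. Exons of Hif1a overlap those of Gm49321 on the same strand and of Gm15283 on the opposite strand, so counts in the shared stretches are uncertain. Epas1, the gene of HIF2α (chromosome 17, 86753700 to 86833410, plus strand), is known for high expression in endothelium and in alveolar type 2 cells. It was at 304 to 633 CPM in KP and 463 to 827 CPM in KPG1, a log2 fold change of 0.28 (95% interval -0.27 to 0.83). KPG1 1 held the highest Epas1 level, and the summed levels of the endothelial list (1690 CPM) and the alveolar type 2 list (99368 CPM) were also highest in that library. KP 5 held the highest Epas1 level in KP (633 CPM) but the lowest endothelial sum of all libraries (411 CPM). KP 1 held the lowest Epas1 level (304 CPM) and the lowest alveolar type 2 sum (19614 CPM). Fitted values in KPG1 were above those in KP for all 12 endothelial and all 11 alveolar type 2 markers, 1 and 4 of them at an unadjusted p under 0.05, and none of these markers was at 0. Over all genes 47.3% had a lower fitted value and 5.26% were higher at that p. The endothelial sum was 411 to 1167 CPM in KP and 594 to 1690 CPM in KPG1, and the alveolar type 2 sum was 19614 to 67421 CPM and 53357 to 99368 CPM. The part of these markers in the Epas1 values was not tested.

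Hif3a, whose product lacks part of the activating region of the other α subunits and can restrain them, was the regulator with the lowest fold change (chromosome 7, 17031507 to 17062427, minus strand). It was at 66.3, 48.9, 47.1, 125 and 143 CPM in KP 1 to KP 5 and at 45.8, 35.8, 17.5, 25.4 and 79.5 CPM in KPG1 1 to KPG1 5. KP 4 and KP 5 stood above every KPG1 tumor, while the other 3 KP tumors lay below KPG1 5, so the groups overlapped. The log2 fold change was -1.11 (SE 0.43, 95% interval -2.05 to -0.17, limma p 0.0244, adjusted p 0.357), and the exact permutation p was 0.0635. Hif3a overlaps 4833404L02Rik on the opposite strand, outside the exons.

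The β subunit gene Arnt, the common partner of the α subunits, was at 94.1 to 145 CPM in KP and 118 to 135 CPM in KPG1 (log2 fold change 0.12, 95% interval -0.15 to 0.40). Arnt2, a related β subunit best known from the nervous system, was scarce, with 4 to 149 counts in a library. It reached 2.49 CPM in KP 1 and 3.38 CPM in KPG1 3 and was at most 0.73 CPM in the other 8 libraries, so its interval ran from -1.99 to 2.36 and the data bear little on it.

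Of the 3 prolyl hydroxylases none passed the threshold, and the differences between them were not tested. Egln1, the main oxygen sensor for HIF1α, was at 60.5 to 98.1 CPM in KP and 78.7 to 139 CPM in KPG1 (log2 fold change 0.25, 95% interval -0.15 to 0.66), and Egln2 was at 38.6 to 66.7 CPM and 46.1 to 58.6 CPM (0.02, -0.34 to 0.39). Egln3, a hydroxylase that is itself induced by HIF, was at 23.7, 16.3, 26.5, 77.1 and 50.3 CPM in KP 1 to KP 5 and at 18.3, 25.8, 14.7, 15.3 and 24.5 CPM in KPG1 1 to KPG1 5. KP 4 and KP 5 were high and the other 3 KP tumors lay within or near the KPG1 range. The log2 fold change of Egln3 was -0.81 (SE 0.39, 95% interval -1.67 to 0.05, limma adjusted p 0.457, exact permutation p 0.119). Hif1an, the asparagine hydroxylase that blocks the activating region of the α subunit, was at 74.3 to 96.1 CPM in KP and 69.2 to 107 CPM in KPG1 (0.04, -0.26 to 0.34). Vhl, the substrate receptor that marks hydroxylated α subunits for degradation, was at 24.7 to 35.02 CPM in KP and in a narrow range of 32.8 to 34.2 CPM in KPG1 (0.17, -0.09 to 0.43). The 2 regulators with fitted values below 0, Hif3a and Egln3, were also those in which both KP 4 and KP 5 lay above every KPG1 tumor.

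The partners of these regulators were examined as a list of VHL complex subunits and HIF cofactors, of which 17 of 19 were tested. Fitted values were higher in KPG1 for 11 and lower for 6, the median log2 fold change was 0.08, and 0 passed the adjusted threshold in either direction. At an unadjusted p under 0.05 there was 1 gene, Tceb1, the elongin C subunit that links VHL to its ligase, whose estimate was 0.28 (SE 0.13, limma adjusted p 0.432). Among all genes tested, 47.3% had a lower fitted value and 5.26% were higher at that p. Cul2, the scaffold of that ligase, had 0.37 (adjusted p 0.479), Crebbp, a coactivator of HIF, had -0.29 (0.568) and Os9 had 0.16 (0.696).

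Ndrg1, a gene induced by hypoxia and linked to differentiation and vesicle traffic (chromosome 15, 66929318 to 66969640, minus strand), was at 405, 293, 349, 570 and 300.4 CPM in the 5 KP tumors in order. The KPG1 tumors were at 184, 208, 183, 198 and 247 CPM, in order. Every KP tumor lay above every KPG1 tumor, with KP 4 the highest and KP 2 the closest to the KPG1 range. The means were 383 ± 113 CPM (SD, n = 5) and 204 ± 26.2 CPM (SD, n = 5), and the log2 fold change was -0.87 (SE 0.18, 95% interval -1.27 to -0.47, limma adjusted p 0.0916, exact permutation p 0.00794). Exons of Ndrg1 overlap those of Gm17035 and Gm2895 on the opposite strand, and the strand setting of the counting is not given in the sources used here.

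Bhlhe40, a repressor of transcription that answers to hypoxia, to the circadian clock and to many acute stimuli (chromosome 6, 108660629 to 108666925, plus strand), was at 476, 574, 555, 478 and 672 CPM in KP 1 to KP 5. The KPG1 tumors were at 386, 338, 266, 282 and 348 CPM in KPG1 1 to KPG1 5. The highest KPG1 tumor was below the lowest KP tumor, and the KP tumors KP 1 and KP 4 were the nearest to it. The means were 551 ± 80.6 CPM (SD, n = 5) and 324 ± 49.4 CPM (SD, n = 5), and the log2 fold change was -0.77 (SE 0.14, 95% interval -1.09 to -0.45, limma adjusted p 0.0615, exact permutation p 0.00794). Its exons overlap those of 0610040F04Rik on the opposite strand. The related repressor Bhlhe41 was much scarcer, at 1.49 to 14.9 CPM in KP and 1.86 to 4.03 CPM in KPG1, with a log2 fold change of -0.87 (SE 0.53, adjusted p 0.555).

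The position of Ndrg1 and Bhlhe40 against the threshold depended on the tool. Both passed as lower in DESeq2, with adjusted p-values of 0.00103 and 0.000218, where 2.61% of all genes did. Both passed with a weight for each library (adjusted p 0.0334 and 0.0177, against 1.09% of all genes) and without KP 5 (0.0376 and 0.0390, against 1.35%). Bhlhe40 also passed after the filter on a mean TPM of at least 20 (adjusted p 0.0433, against 0.381% of the genes then tested). Neither passed in any other fit tried, and edgeR's quasi-likelihood test called 0 members in either direction.

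Adm, the gene of the vasodilator peptide adrenomedullin (chromosome 7, 110627661 to 110629820, plus strand), had the lowest fold change of all members. It was at 6.35, 4.90, 6.99, 16.4 and 5.44 CPM in KP 1 to KP 5 and at 5.75, 2.59, 3.19, 1.29 and 3.60 CPM in KPG1 1 to KPG1 5. KP 4 was far above the rest, and KPG1 1 lay above KP 2 and KP 5, so the groups overlapped. The log2 fold change was -1.28 (SE 0.42, 95% interval -2.21 to -0.35, limma p 0.0111, adjusted p 0.277, exact permutation p 0.0238).

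**Figure D2:**
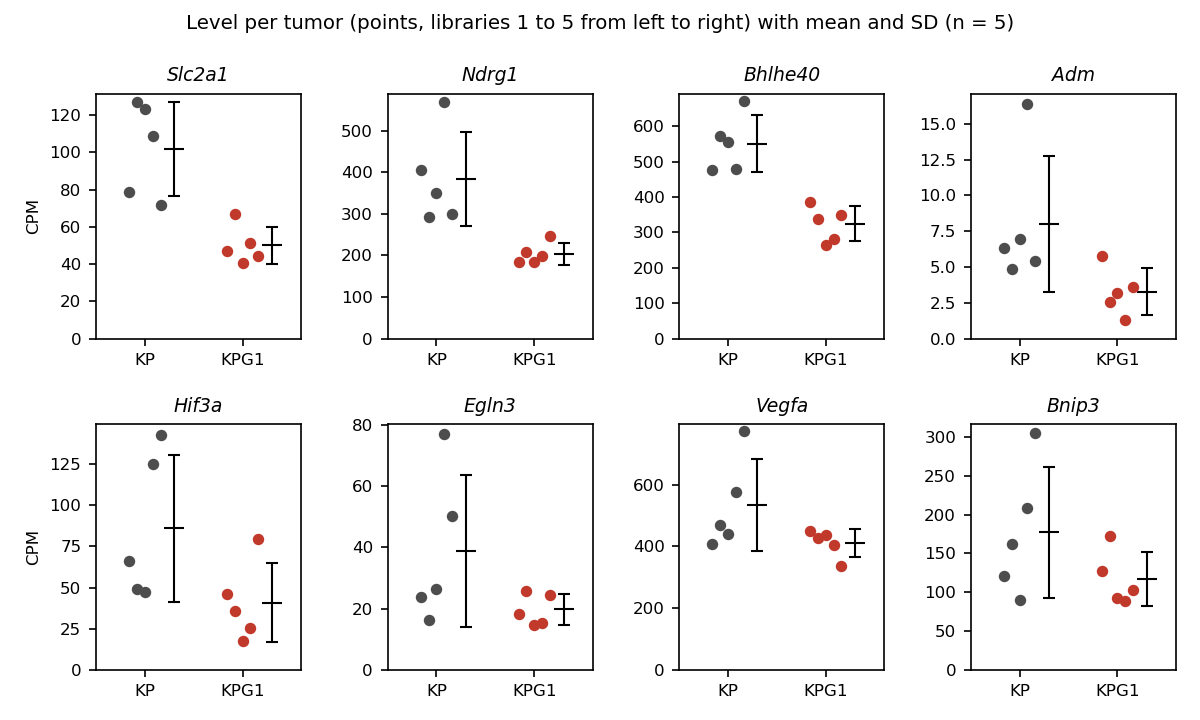
CPM of Slc2a1 and 7 members in each tumor, with KP in grey and KPG1 in red. Horizontal marks and bars are the mean and SD (n = 5). Slc2a1, Ndrg1 and Bhlhe40 show no overlap between groups, while for Adm, Hif3a, Egln3, Vegfa and Bnip3 the KP spread comes from 1 or 2 high tumors, KP 4, KP 5 or both.

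Beside these genes, early response genes that are known to rise when tissue is dissociated were examined. Of 14 such genes 13 had a lower fitted value in KPG1, 11 at an unadjusted p under 0.05, and 2 passed the adjusted threshold, Ier3 (log2 fold change -1.07, limma adjusted p 0.0240) and Fosb (-1.82, 0.0464). Over all genes these shares were 47.3%, 6.31% and 0.111%. The median log2 fold change of the list was -1.12. Its summed level was 8632 to 13597 CPM in KP and 3375 to 6192 CPM in KPG1, with no overlap, and none of the 14 was at 0. The part of this difference in the values of Bhlhe40, Ndrg1 and Adm was not tested.

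HIF binds DNA at ACGTG or GCGTG. These letters were searched on both strands of the 250 bases before each start listed for a gene in RefSeq (GRCm38.p6). A gene can have several such windows. A promoter was found for 28 of the 36 members. None was found for Epas1, Bnip3l, Ndrg1, Plod2, Lox, Loxl2, Bhlhe40 or Stc1. At least 1 match stood in a window of 24 of the 28 genes, and in 26 of their 34 windows (76.5%), against 38.6% of the 32851 windows of all genes. By the GENCODE positions some of these windows lie inside the gene, among them that of Hif1a. The Vegfa window before its GENCODE start held 0 matches, and its only matches lay in a window inside the gene. Windows of targets held one in 19 of 24 cases (79.2%) and windows of regulators in 7 of 10. The palindrome CACGTG, which holds ACGTG on both strands, was in 4 of the 34 windows (11.8%, against 6.02% of all). Matches are a description of the letters only, and no binding was measured in these tumors.

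The windows of Adm and Hif3a are shown because these were the members with an unadjusted p under 0.05 for which a promoter was found. That of Bnip3 is shown because it held 5 matches, the most in a single window. Of the windows with 1 match, that of Car9 is shown because its match lies closest to the start. Matches on either strand are in capitals, and the sequences run 5′ to 3′ towards the start, at chr7:110627407-110627656 (plus strand) for Adm, chr7:17062428-17062677 (minus strand) for Hif3a, chr7:138909507-138909756 (minus strand) for Bnip3 and chr4:43506776-43507025 (plus strand) for Car9.
Adm: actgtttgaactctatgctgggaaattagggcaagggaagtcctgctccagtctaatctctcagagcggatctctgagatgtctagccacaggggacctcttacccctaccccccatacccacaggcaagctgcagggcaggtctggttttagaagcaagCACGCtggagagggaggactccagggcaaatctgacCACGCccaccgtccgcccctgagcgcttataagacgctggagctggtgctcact
Hif3a: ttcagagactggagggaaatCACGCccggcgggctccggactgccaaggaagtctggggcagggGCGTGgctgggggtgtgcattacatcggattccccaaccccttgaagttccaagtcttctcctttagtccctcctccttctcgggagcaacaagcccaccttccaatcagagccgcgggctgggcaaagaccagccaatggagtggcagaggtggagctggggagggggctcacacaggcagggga
Bnip3: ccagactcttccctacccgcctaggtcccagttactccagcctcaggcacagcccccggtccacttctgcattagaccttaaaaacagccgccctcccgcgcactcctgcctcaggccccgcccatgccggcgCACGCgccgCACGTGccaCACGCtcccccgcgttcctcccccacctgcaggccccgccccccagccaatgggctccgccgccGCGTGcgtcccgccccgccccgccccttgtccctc
Car9: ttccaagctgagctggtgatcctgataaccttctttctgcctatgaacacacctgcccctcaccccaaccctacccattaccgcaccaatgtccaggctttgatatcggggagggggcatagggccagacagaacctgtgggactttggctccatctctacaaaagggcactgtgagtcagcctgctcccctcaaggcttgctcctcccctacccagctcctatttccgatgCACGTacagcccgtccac
The matches of Adm began 90 and 54 bases before the start and the single match of Car9 18 bases before it. By the GENCODE positions Car9 starts at 43506966, so that match lies inside the gene there. In Bnip3, 4 of the 5 began between 117 and 99 bases before the start and include the palindrome, and the fifth lay 35 bases before it. Members with such matches were found on both sides of 0 in the comparison of KPG1 with KP.

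Vegfa, the main growth factor for blood vessels (chromosome 17, 46016993 to 46032369, minus strand), had the highest mean level per length of all members in KP, at 417 ± 95.7 TPM (SD, n = 5). In KPG1 it stood at 326 ± 40.5 TPM (SD, n = 5). Bhlhe40 was above Vegfa per length in KP 1, KP 2 and KP 3, and below it in KP 4 and KP 5. Vegfa was at 406, 470, 441, 576 and 773 CPM in KP 1 to KP 5 and at 450, 425, 435, 404 and 335 CPM in KPG1 1 to KPG1 5. KP 2, KP 4 and KP 5 lay above all KPG1 tumors, KP 2 by the least, and KP 1 and KP 3 lay among them. The log2 fold change was -0.35 (SE 0.18, 95% interval -0.73 to 0.04, limma adjusted p 0.484, exact permutation p 0.0873). Of 10 VEGF receptors and partner ligands 9 were tested, 8 with a higher and 1 with a lower fitted value, 0 of them at an unadjusted p under 0.05. Among all genes tested, 47.3% had a lower fitted value, and 5.26% were higher and 6.31% lower at that p. Nrp1, a coreceptor, had a log2 fold change of 0.73 (adjusted p 0.499), Kdr, the main receptor, had 0.56 (0.526), Figf, the ligand VEGF-D, had 0.37 (0.626) and the placental growth factor gene Pgf had -0.63 (0.482). Kdr is also one of the endothelial markers described above.

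The mitophagy receptors Bnip3 and Bnip3l, which direct mitochondria to autophagy, did not pass the threshold. Bnip3 (chromosome 7, 138890836 to 138909519, minus strand) was at 89.7 to 305 CPM in KP and 88.9 to 173 CPM in KPG1. Its log2 fold change was -0.52 (SE 0.31, limma adjusted p 0.547, exact permutation p 0.198). Bnip3l was at 114 to 322 CPM in KP and 162 to 190 CPM in KPG1, with a log2 fold change of -0.00 and a 95% interval of -0.49 to 0.49. Both were highest in KP 5. Higd1a, a small mitochondrial protein that helps cells survive without oxygen, was the steadiest target within KP, at 41.8 to 50.8 CPM there and 34.5 to 42.7 CPM in KPG1. Its log2 fold change was -0.24 (SE 0.11, 95% interval -0.48 to 0.00, limma p 0.0514, adjusted p 0.434, unadjusted exact permutation p 0.0238).

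Of the genes of acid and growth control, Car9, the membrane carbonic anhydrase used as a marker of hypoxic tumor, varied most among the targets within KP. It was at 1.45, 1.73, 4.26, 61.0 and 20.4 CPM in KP 1 to KP 5, a 42.1-fold range, and at 3.28, 15.3, 3.35, 10.7 and 1.67 CPM in KPG1 1 to KPG1 5. The lowest and the 2 highest values were in KP tumors, so the KPG1 values lay within the KP range, and the log2 fold change of -0.54 had a 95% interval of -2.81 to 1.74. Its relative Car12 was at 0.39 to 4.13 CPM in KP, again highest in KP 4, and 0.31 to 1.20 CPM in KPG1. Ddit4, an inhibitor of mTOR complex 1, was at 55.7 to 103 CPM in KP and 48.3 to 58.2 CPM in KPG1, with a log2 fold change of -0.33 (SE 0.16, adjusted p 0.461, exact permutation p 0.0317). Its highest level was in KP 3. Mxi1, a repressor that opposes Myc, was at 23.7 to 50.05 CPM in KP and 25.4 to 43.2 CPM in KPG1 (log2 fold change -0.20).

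Among genes of collagen processing and protein folding none passed the adjusted threshold. The prolyl 4-hydroxylase subunits P4ha1 and P4ha2, which stabilise the collagen helix, had log2 fold changes of 0.05 and -0.10. Their 95% intervals were -0.46 to 0.57 and -0.94 to 0.73. The lysyl hydroxylases Plod1 and Plod2, which prepare collagen for cross-links, had 0.19 (-0.23 to 0.60) and -0.02 (-0.64 to 0.60). Lox, the lysyl oxidase that makes those cross-links, had the highest fold change of all members. It was at 3.64 to 8.25 CPM in KP and 3.49 to 13.5 CPM in KPG1, a log2 fold change of 0.71 with a 95% interval of -0.16 to 1.57. Its highest value was in KPG1 1, which also had the highest sum of the fibroblast list, 399 CPM. KPG1 2 had the next highest Lox value (12.5 CPM) but the lowest fibroblast sum in KPG1 (219 CPM). KPG1 3 had the lowest Lox value of all tumors (3.49 CPM) at a fibroblast sum of 305 CPM. The fibroblast sum was 157 to 331 CPM in KP and 219 to 399 CPM in KPG1, 9 of its 10 genes had a higher fitted value there with 2 at an unadjusted p under 0.05, and none was at 0. Over all genes 47.3% had a lower fitted value and 5.26% were higher at that p. The part of fibroblasts in the Lox values was not tested. Loxl2, a related oxidase, was at 1.16 to 5.69 CPM in KP and 1.43 to 2.88 CPM in KPG1. Ero1l, the oxidase that drives disulfide bond formation in the endoplasmic reticulum, was at 101 to 231 CPM in KP and 113 to 169 CPM in KPG1, a log2 fold change of -0.09 (95% interval -0.57 to 0.40).

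The remaining targets gave no clearer difference. The stanniocalcins Stc1 and Stc2, secreted glycoproteins of calcium and phosphate balance, had log2 fold changes of -0.30 and -0.84, and Stc2 spread from 1.04 to 16.7 CPM in KP and from 0.66 to 6.93 CPM in KPG1. Kdm3a, a histone demethylase, had 0.12, and Ankrd37, whose exons overlap those of Lrp2bp and Ufsp2 on the opposite strand, had -0.22. Cited2, which competes with HIF for its coactivator and so limits it, was at 107 to 140 CPM in KP and 78.3 to 139 CPM in KPG1 (-0.07, 95% interval -0.44 to 0.29). Rora, a nuclear receptor, had -0.01. The adjusted p-values of the 25 targets ran from 0.0615 to 0.999 and those of the 10 regulators from 0.357 to 0.975. Epo, the hormone of red cell production, had 0 to 10 counts in a library. Its exons overlap those of Gnb2 on the same strand, so even these counts are uncertain, and a count of 0 allows up to 3 counts, or 0.0606 to 0.0925 CPM at these depths, as counting error alone.

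**Figure D3:**
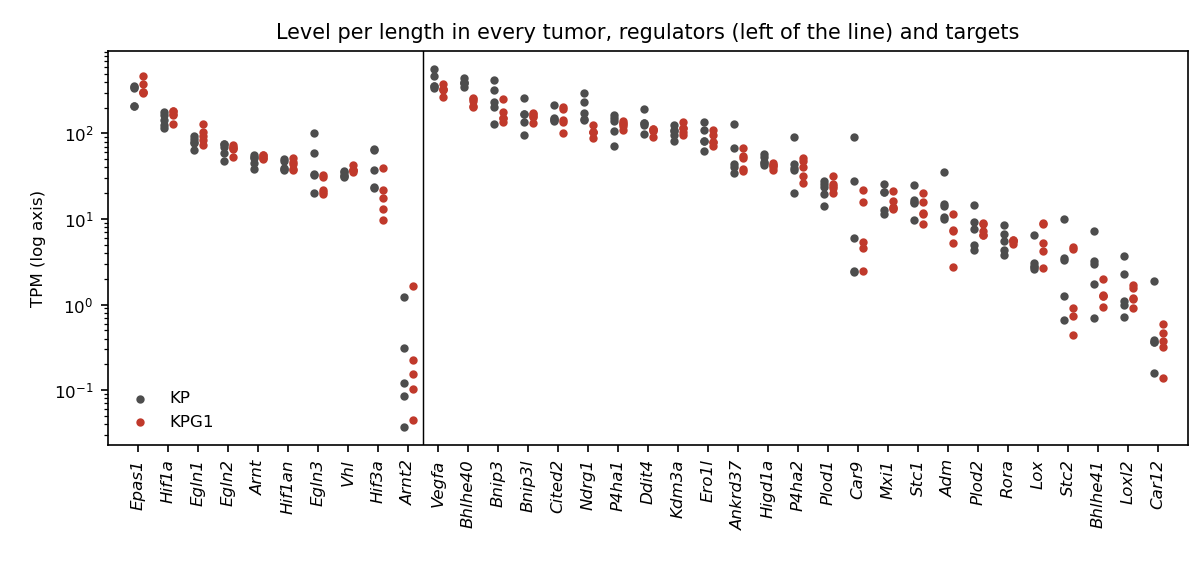
TPM of the 35 members tested in every tumor on a log axis, with regulators left of the line and targets right of it, each ordered by its mean. KP tumors are grey and KPG1 tumors red. Vegfa, Epas1 and Bhlhe40 were the most abundant per length, and Arnt2 and Car12 the least.

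The members spanned a wide range of levels per length. Epas1 was at 293 ± 78.7 TPM (SD, n = 5) in KP and 352 ± 75.4 TPM in KPG1, and Bhlhe40 was at 394 ± 34.1 TPM in KP, where the ranges of these 2 genes overlapped. Hif1a was at 146 ± 26.7 TPM in KP and 165 ± 22.02 TPM in KPG1, below Epas1 in every tumor. Of the hydroxylases Egln1 had the highest mean per length, at 80.3 ± 11.4 TPM in KP, followed by Egln2 at 65.3 ± 11.7 TPM. Their ranges in KP overlapped, and in KP 4 Egln3 was above Egln1, at 100 against 94.5 TPM. Egln3, at 49.2 ± 31.9 TPM, and Hif1an, at 42.3 ± 6.03 TPM, did not differ beyond their spread. Car12, at 0.631 ± 0.705 TPM in KP, and Arnt2, at 0.357 ± 0.499 TPM, were the lowest of the members tested.

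Much of the variation of the targets lay among the KP tumors. The SD of log2 CPM was larger in KP than in KPG1 for 19 of 25 targets (76.0%) and 6 of 10 regulators (60.0%), and the same held for 73.5% of all genes, so this share is near the background. The median SD of the targets was 0.52 in KP and 0.31 in KPG1 on the log2 scale, and for all genes it was 0.39 and 0.26. A KP library held the highest value of 23 of 25 targets (92.0%), against 64.4% of all genes. KP 5 held the highest value of 11 targets and KP 4 that of 8, together 76.0%, where these libraries held the highest value of 32.9% of all genes. They were singled out after the values were seen. Among the regulators they held the highest value of 6 of 10. Each target has only 1 highest library, so the lists for KP 4 and KP 5 cannot share a target. A target could still be high in both. Car9 was 3.39 and 1.81 log2 units above its mean in KP 4 and KP 5, while Car12 was at 2.18 and -1.06. Adm, Ndrg1, Car9, Car12, Plod2, Mxi1, Loxl2 and Higd1a were highest in KP 4, and Vegfa, Bnip3, Bnip3l, Ankrd37, Kdm3a, P4ha1, P4ha2, Ero1l, Bhlhe40, Stc1 and Stc2 were highest in KP 5.

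**Figure D4:**
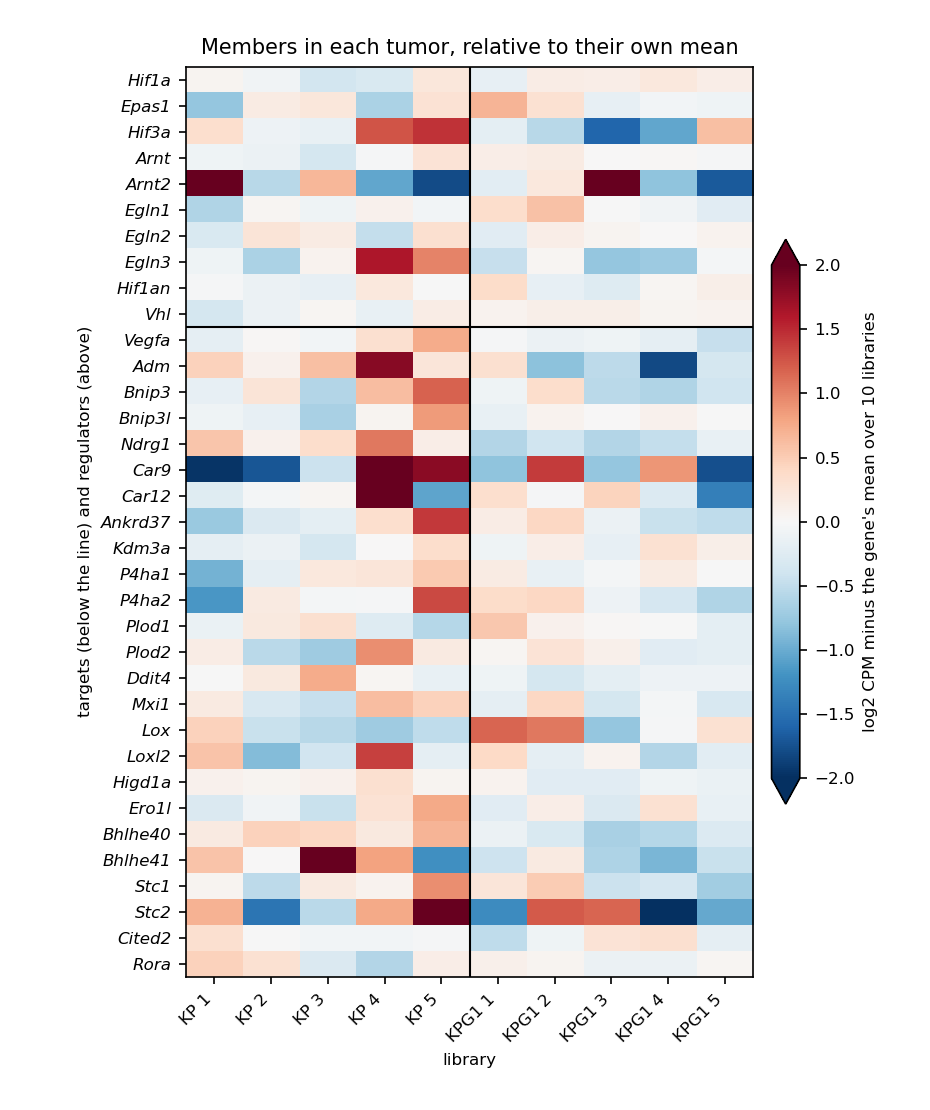
Log2 CPM of each member tested minus its own mean over the 10 libraries, with regulators above the horizontal line, targets below it and KP libraries left of the vertical line. Red is above and blue below the mean, and the colors saturate at 2 log2 units. KP 4 and KP 5 hold the most red among the targets, with 20 and 18 of 25 above their mean, and KPG1 5 the least, with 3.

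Counted by library, 20 of the 25 targets were above their own mean in KP 4 and 18 in KP 5, and 13, 11 and 10 were in KP 1, KP 2 and KP 3. In KPG1 the numbers were 12, 15, 7, 6 and 3 in KPG1 1 to KPG1 5. KPG1 1 and KPG1 2 thus lay within the range of the first 3 KP tumors or above it, and the groups overlapped.

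Of genes of the same response outside the members, all 21 glycolytic HIF targets were tested. Fitted values were lower in KPG1 for 17 of them, 7 at an unadjusted p under 0.05, and 0 passed the adjusted threshold, with a median log2 fold change of -0.28. Over all genes 47.3% had a lower fitted value, 6.31% were lower at that p and 0.111% passed as lower. Slc2a1 is one of the 21 and was the gene targeted. Pfkfb3, which makes an activator of glycolysis, had -0.76 (limma adjusted p 0.206), the hexokinase gene Hk2 had -0.50 (0.239), neither with overlap between groups, and Pgk1 had -0.61 (0.277). A further list of 28 hypoxia-induced genes had a median of 0.05, with 18 higher and 10 lower fitted values. Of these Maff, a small Maf transcription factor, passed the adjusted threshold as lower in KPG1 (log2 fold change -1.24, SE 0.16, adjusted p 0.0233). Angptl4, an inhibitor of lipoprotein lipase, had -0.82 (adjusted p 0.352) and the growth factor gene Tgfa had -0.37 (0.383), both at an unadjusted p under 0.05. Of 13 targets of the stress factor ATF4, 10 had lower and 3 higher fitted values, with a median of -0.19 and 0 past the adjusted threshold. Ddit3 was the member of that list with an unadjusted p under 0.05 (-0.61, adjusted p 0.302).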

How the data were processed

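Lung tumors of KP (n = 5) and KPG1 (n = 5) mice were compared. The deposited counts are whole reads per gene, made by the authors with cutadapt 1.4.2, HISAT2 and featureCounts 1.4.4 on mm10, per the submitters' processing notes, from single-end reads of a stranded mRNA kit. The strand setting and annotation release are not given in the sources used here, and all 390170 values of the joint table equaled the single files. The deposited log2 table was not used. Low genes were removed with filterByExpr (edgeR 4.0.16) in place of the study's TPM filter, leaving 16216 of 39017, and the rest were scaled by TMM and fitted with voom and limma 3.58.1 in R 4.3.3 with the group as the only term. P-values were adjusted by Benjamini-Hochberg over all genes tested, with a threshold of 0.05 and 95% intervals from limma. The fit was tested on simulated data. Levels are CPM with TMM, and log2 CPM has a prior count of 2. TPM used exon lengths of GENCODE M21, which also gave positions and overlaps. Exact permutation tests were two-sided over all rearrangements, without adjustment. Counts carry no molecular identifiers, so depth limits precision as counting error only. Alternatives were edgeR's quasi-likelihood test, DESeq2 1.42.0, other size factors, filters, weights, a replicate block, a sample number term and leaving out each library. All members and Slc2a1 were named, and up to 4 genes of each other list by smallest p. Members and lists were chosen with earlier results of these data known. Same-numbered tumors did not deviate together (correlations -0.16 to 0.08), so the numbers were not taken as pairs. The engineered alleles that start the tumors and a gene of the other lists are not reported here.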

Additional observations from a re-analysis of the deposited data

Results flagged for a closer look

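In a group of 5 tumors, a single value was set apart when its gap to the nearest other value exceeded 0.71 of the group's range. Of 72 groups searched 5 had such a value, where chance gives about 3.6. Values are log2 CPM. In KP 1, Egln1 was low at 5.92 (nearest other KP tumor 6.44), Lox was high at 3.05 (2.15) and Cited2 was high at 7.13 (6.80). In KP 4, Higd1a was high at 5.67 (5.43). In KPG1 1, Hif1a was low at 7.89 (8.19).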

How the results depend on the processing

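Of the 35 members tested, 17 kept the sign of their fold change under every alternative tried and 18 changed it under at least 1. As lower in KPG1, 2 members passed under DESeq2 and with a weight per library (Ndrg1 and Bhlhe40 in each), 1 under the TPM filter (Bhlhe40), and 0 to 2 when 1 library was left out. The cause of these moves was not tested. The sample number was tied to the group, 1 to 10 in KPG1 and 6 to 16 in KP, which limits the fits that hold it. The median log2 fold change of regulators was -0.019 and that of targets -0.41 with the sample number as a term, and with weights they were 0.089 and -0.067. Without 1 library they were 0.079 to 0.16 and -0.33 to -0.13. Over all genes, those higher numbered 125 with DESeq2, 51 with weights, 4 with the replicate block, 4 with the sample number and 3 to 71 without 1 library. Those lower numbered 29 with edgeR, 423 with DESeq2, 31 without a filter, 29 with the TPM filter, 177 with weights, 1 with the replicate block, 4 with the sample number and 1 to 223 without 1 library. Among the fits without 1 library, both counts were highest without KP 5. No member passed with the replicate block. Slc2a1 had an adjusted p of 0.000255 in DESeq2 (-1.04), 0.0171 with weights (-1.13) and 0.176 with the replicate block. Its mean log2 CPM differed by -1.01, and without 1 library its log2 fold change was -1.14 to -0.92, passing only without KP 5 (adjusted p 0.0220).

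Log2 fold changes that changed sign with the sample number as a term were those of Hif1a (-0.087), Arnt (-0.036), Arnt2 (-0.0029), Egln2 (-0.22), Car12 (0.27), Kdm3a (-0.067) and Loxl2 (0.18). With weights they were those of Bnip3l (0.20), Car9 (0.22), Plod1 (-0.0077), Plod2 (0.12), Ero1l (0.11) and Cited2 (0.045). In edgeR and DESeq2 they were those of Egln2 (-0.0097 and -0.022) and P4ha1 (-0.023 and -0.035), without a filter those of Bnip3l (0.0019) and Rora (0.0015), and with the replicate block that of Bnip3l (0.00084). The plain mean log2 CPM of Plod2 differed by 0.0030.

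When 1 library was left out, the signs of Arnt2 (-0.56 to 0.86), Egln2 (-0.10 to 0.091), Hif1an (-0.062 to 0.11), Bnip3l (-0.17 to 0.19), Car9 (-1.14 to 0.28), Car12 (-0.71 to 0.19), Ankrd37 (-0.44 to 0.11), P4ha1 (-0.17 to 0.18), P4ha2 (-0.41 to 0.20), Plod2 (-0.21 to 0.22), Loxl2 (-0.45 to 0.11), Ero1l (-0.22 to 0.074), Cited2 (-0.17 to 0.027) and Rora (-0.16 to 0.11) changed. Car9, Car12 and Loxl2 did so without KP 4, and Ankrd37 and Ero1l without KP 5.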
